A study of Mus musculus with 6 samples.

Results

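Eph receptors and ephrins were followed in RAW264.7 cells, a mouse macrophage line, through 9 genes. Their members were the receptors Epha2, Epha4, Ephb2, Ephb4 and Ephb6 and the ligands Efna1, Efna4, Efnb1 and Efnb2, matched by symbol. The set was selected for the large difference of Epha2 between the groups compared here, so the group differences of the members are a description and carry no p-value. The mouse family comprises 22 genes in the count table, 14 receptors and 8 ephrins, among 56092 genes with a symbol.

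The study asked what Trem2, a myeloid receptor for lipids and debris, does in macrophages that meet dead tubular cells. RAW264.7 cells stably carried a lentiviral vector with GFP and either a control shRNA (shNC, 3 libraries) or an shRNA against Trem2 (shTrem2, 3 libraries), after puromycin selection. Both groups were given IL-4 (20 ng/mL, 24 hours), followed by 24 hours with debris of freeze-thawed TCMK-1 cells, a mouse kidney tubule line. Which of the study's Trem2 shRNAs these libraries carry is not given in the sources used here, and there was no library without IL-4 or debris. The paper gives a range of debris per well for its co-cultures, but not which amount these libraries received. The sources also do not say whether the shTrem2 libraries come from 1 line, and the knockdown and any other difference between the stable lines cannot be told apart. Nothing says that replicates were separate cultures, so p-values measure only the spread between these libraries, which may be technical.

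Eph receptors are tyrosine kinases that bind ephrins on the surface of neighbouring cells. A-class ephrins are held in the membrane by a lipid anchor and B-class ephrins span it, and contact can signal in both directions, forward through the receptor and in reverse through the ephrin. The system is best known for repulsion, adhesion and the sorting of cells, and in macrophages and their osteoclast descendants for adhesion, migration and differentiation.

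Named estimated counts ranged from 15876079 to 18088404 per shNC library and from 19358144 to 19655185 per shTrem2 library. Trem2 measured 116, 124 and 145 CPM, counts scaled to the named total of each library, in shNC and 63.8, 62.5 and 79.2 CPM in shTrem2. It fell by 0.87 on the log2 scale (SE 0.09, adjusted p = 3.38e-06, edgeR's quasi-likelihood test, Benjamini-Hochberg adjusted), and by 2.08 when computed from log2(FPKM + 0.1). A gene was called when its adjusted p was under 0.05 and its fold change was over 1.5. Of 13528 genes tested, 21.8% were called, 12.4% lower and 9.46% higher in shTrem2, and the CPM values of the groups did not overlap for 63.5%. Of 8 macrophage markers, Lyz2, Csf1r and Fcgr1 rose, Itgam fell, 3 were not called, and Mertk was at 3 counts or fewer in every library. Their summed level was 5040 to 5914 CPM in shNC and 9853 to 10960 CPM in shTrem2, a difference that lay mostly in Lyz2 (mean 2834 and 7270 CPM), whereas Itgam averaged 471 and 267 CPM. Fewer cells of a type and less RNA per cell cannot be told apart in these bulk libraries.

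Epha2 was the predominant Eph receptor in shNC and was much lower in shTrem2, and its ligand gene Efna1 was lower by a smaller factor. Of the 9 members, 3 passed the filter on low counts (Epha2, Efna1 and Efnb1). Of these 3, Epha2 and Efna1 met the criteria for a call, both lower in shTrem2, beside 21.8% of all genes called; the choice of members used this contrast, so nothing is read from that count. Another 3 members (Ephb4, Efna4 and Efnb2) had more than 3 counts in some library but were too low to test. The remaining 3 were at or under 3 counts in all 6 libraries, the limit that a count of 0 allows, which is 0.153 to 0.189 CPM here and covers counting error only.

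Epha2 (ENSMUSG00000006445) encodes a receptor of A-class ephrins that is common in epithelial and tumour cells and is also studied in monocytes and macrophages. Its RefSeq promoter is shown because Epha2 carries the largest difference among the tested family genes. The 250 bases before the start lie at chr4:141300971-141301220 on the forward strand of GRCm38.p6, and capitals mark matches to the motifs listed after it:
Epha2 promoter: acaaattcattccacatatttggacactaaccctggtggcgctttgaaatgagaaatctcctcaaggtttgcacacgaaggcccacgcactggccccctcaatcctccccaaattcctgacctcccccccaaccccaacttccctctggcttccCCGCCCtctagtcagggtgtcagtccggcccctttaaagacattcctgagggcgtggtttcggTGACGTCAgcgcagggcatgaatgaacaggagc
Reading 5′ to 3′, the first capitals are a GC box (GGGCGG on the reverse strand, first base at -96 from the start) and the second a cyclic AMP response element (TGACGTCA, first base at -33). Among 32851 RefSeq promoters of the same length, 32.7% held a GC box and 1.55% held TGACGTCA. No match to the AP-1 site TGANTCA, the E-box CACGTG, the STAT6 letters (TTC and GAA with 4 bases between), the NF-kB letters (GGG and TTCC with 3 bases between) or the PU.1 letters GAGGAA lay in this window on either strand, and these letters occurred in 6.75%, 6.02%, 5.85%, 4.65% and 23.3% of promoters. The matches shown do not overlap, and a match describes letters, not binding. The GC content of the Epha2 window was 55.6% with 9 CpG, against medians of 52.4% and 6 over all promoters.

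Epha2 measured 47.2, 43.9 and 33.0 CPM in the shNC libraries and 2.93, 2.22 and 1.88 CPM in the shTrem2 libraries. The lowest shNC library lay far above the highest shTrem2 library. The means were 41.3 ± 7.44 CPM (SD, n = 3) and 2.34 ± 0.53 CPM (SD, n = 3), a log2 difference of -4.10 (SE 0.17) or 17.2-fold lower. These values rest on 749, 780 and 596 estimated counts in shNC and 57, 43 and 37 in shTrem2, so the receptor remained above the limit of detection in every library. Most Epha2 counts fell on 1 of its 4 transcript rows, which held 745.7, 774.2 and 594.1 counts in shNC and 53.2, 37.6 and 37 in shTrem2. A further row held 1.90 to 5.26 counts in the shNC libraries and 3.87, 4.86 and 0 in the shTrem2 libraries. Per unit of length, Epha2 measured 13.3, 12.4 and 9.22 FPKM in shNC and 1.06, 1.07 and 0.52 FPKM in shTrem2. CPM per FPKM was 3.52 to 3.57 in shNC but 2.08 to 3.62 in shTrem2, so the size of the difference depended on the unit more than for Efna1, while its direction did not.

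**Figure D1:**
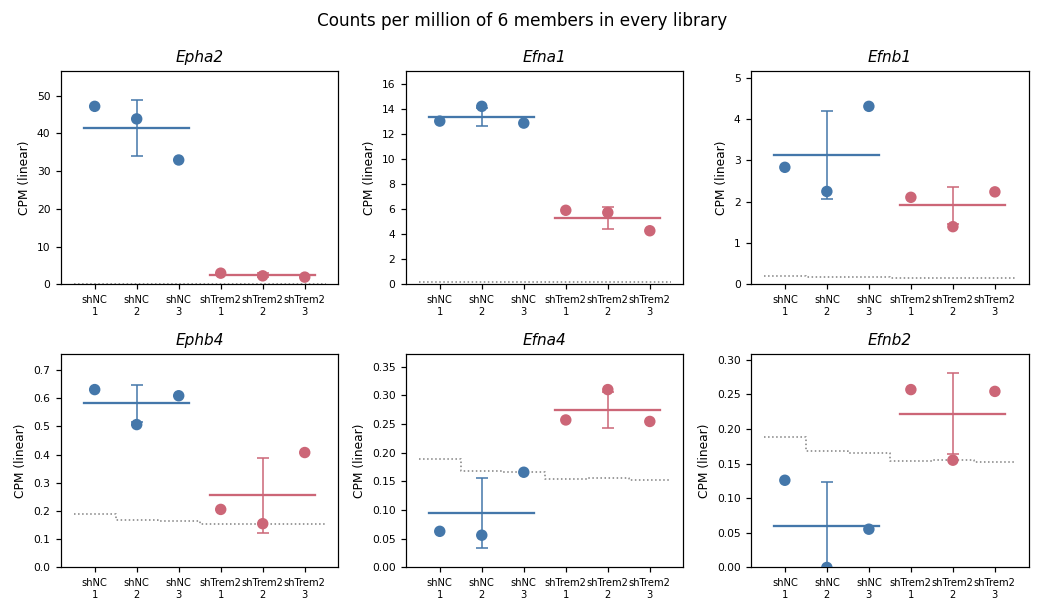
CPM (linear axis from 0, a different scale in each panel) of the 6 members with more than 3 counts in some library, 1 point per library, with a line at each group's mean, bars of ± 1 SD (n = 3) and a dotted line at 3 counts. Epha2 lies at 33.0 CPM or more in shNC and at 2.93 CPM or less in shTrem2, whereas the lower row lies under 1 CPM throughout.

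Efna1 (ENSMUSG00000027954) encodes ephrin-A1, a lipid-anchored ligand that binds EphA2 with high affinity. Its promoter is shown for comparison with that of its receptor. RefSeq gives Efna1 starts that differ, both on the reverse strand of chromosome 3 in GRCm38.p6, with windows at chr3:89280952-89281201 (first) and chr3:89279646-89279895 (second), written in the direction of the gene:
Efna1 promoter, first start: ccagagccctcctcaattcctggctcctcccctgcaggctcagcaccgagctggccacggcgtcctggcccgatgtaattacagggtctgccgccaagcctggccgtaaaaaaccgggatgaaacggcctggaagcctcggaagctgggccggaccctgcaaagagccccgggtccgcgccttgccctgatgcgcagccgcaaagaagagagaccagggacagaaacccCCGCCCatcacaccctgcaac
Efna1 promoter, second start: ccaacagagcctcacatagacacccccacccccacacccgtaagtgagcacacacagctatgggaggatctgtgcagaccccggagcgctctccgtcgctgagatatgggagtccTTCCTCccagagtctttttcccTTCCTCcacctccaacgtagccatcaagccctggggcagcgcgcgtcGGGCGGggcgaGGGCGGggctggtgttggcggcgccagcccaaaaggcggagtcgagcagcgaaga
The first window held 1 GC box (reverse strand, -21). The second held GC boxes at -66 and -55 and the PU.1 letters on the reverse strand at -135 and -113. Neither window held TGACGTCA, which the Epha2 window held. Their GC contents were 64.8% and 64.4%, with 16 and 18 CpG.

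Efna1 measured 13.0, 14.2 and 12.9 CPM in shNC and 5.91, 5.73 and 4.27 CPM in shTrem2. The groups did not overlap, and the shNC libraries lay close together. The means were 13.4 ± 0.73 CPM and 5.31 ± 0.90 CPM (SD, n = 3 each), a log2 difference of -1.30 (SE 0.14) or 2.46-fold lower. CPM per FPKM stayed between 1.15 and 1.17 in all 6 libraries, so the difference was the same in either unit.

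Efnb1 (ENSMUSG00000031217) encodes ephrin-B1, a transmembrane ligand of EphB receptors. Efnb1 measured 2.83, 2.25 and 4.31 CPM in shNC and 2.11, 1.40 and 2.24 CPM in shTrem2. The second shNC library and the third shTrem2 library nearly met, and in FPKM the groups overlapped (0.96, 0.76 and 2.31 against 1.08, 0.47 and 0.76). The log2 difference was -0.68 (SE 0.29), and it was -0.37 without shNC replicate 3, the highest library. In that library 8.96 of the Efnb1 counts fell on a second transcript row, which held 0 in the other shNC libraries. Efnb1 did not meet the criteria for a call.

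Ephb4 (ENSMUSG00000029710) encodes the receptor that pairs with ephrin-B2 in the separation of arteries and veins. It had 10, 9 and 11 counts in shNC and 4, 3 and 8 in shTrem2. All shNC libraries were above all shTrem2 libraries. The ratio of summed counts per unit of depth, shTrem2 to shNC, was 0.45 (95% interval 0.23 to 0.87, exact, counting error only). The counts lay on different transcript rows from library to library. The gene overlaps Zan on the other strand in GENCODE M21, so reads of Ephb4 and Zan may not be fully separated if the counting ignored strand.

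The ligand genes Efna4 and Efnb2 were at or under the limit of detection in shNC and at 6 counts or fewer in shTrem2. Efna4 (ENSMUSG00000028040), which encodes the A-class ligand ephrin-A4, had 1, 1 and 3 counts in shNC and 5, 6 and 5 in shTrem2, a ratio of 2.90 (95% interval 1.01 to 10.1, counting error only). Efnb2 (ENSMUSG00000001300), which encodes ephrin-B2 and takes part in reverse signalling in osteoclast precursors, had 2, 0 and 1 counts in shNC and 5, 3 and 5 in shTrem2, a ratio of 3.93 (95% interval 1.08 to 21.5, counting error only). Both genes were thus not detected in shNC, where every library was at or under 3 counts, and passed that limit only through shTrem2. Their ratios and intervals describe these counts and are not read as a difference between the groups. Single libraries moved these ratios: on the log2 scale Efnb2 went from 1.97 to 3.03 without shNC replicate 1 and to 1.36 without shNC replicate 2, and Efna4 from 1.54 to 2.24 without shNC replicate 3. Efnb2 overlaps 3 annotated genes on its own strand, E230020D15Rik, Gm45074 and Gm45073. Efna4 overlaps an annotated antisense gene, 4731419I09Rik. The paper describes a stranded library kit and an alignment that used read orientation. Whether the counting used strand is not given in the sources used here.

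Epha4, Ephb2 and Ephb6 were not detected. Epha4 (ENSMUSG00000026235), a receptor that binds ephrins of both classes, had 1 count in shNC replicate 2 and 0 in the other 5 libraries. Ephb2 (ENSMUSG00000028664), a guidance receptor of axons and intestinal epithelium, and Ephb6 (ENSMUSG00000029869), a receptor without kinase activity, had 0 counts in all 6 libraries. A count of 0 allows up to 3 counts per library, so lower levels could not be seen at this depth.

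The order of levels per length differed between the groups. In shNC, Epha2 averaged 11.7 ± 2.14 FPKM and Efna1 11.5 ± 0.62 FPKM (SD, n = 3 each), and these 2 genes did not differ beyond their spread. Efnb1 followed at 1.34 ± 0.84 FPKM, Ephb4 at 0.16 ± 0.02, Efna4 at 0.073 ± 0.049 and Efnb2 at 0.013 ± 0.015, the last pair with overlapping spreads. In shTrem2, Efna1 was highest at 4.56 ± 0.73 FPKM, and Epha2 at 0.88 ± 0.31 FPKM overlapped with Efnb1 at 0.77 ± 0.31. Efna4 then stood at 0.21 ± 0.02, Ephb4 at 0.067 ± 0.031 and Efnb2 at 0.050 ± 0.017, with Ephb4 and Efnb2 overlapping. Among the 13528 tested genes, Epha2 ranked between the 42.1 and 50.2 percentile by FPKM in shNC and between 8.43 and 14.6 in shTrem2, and Efna1 between 46.0 and 48.0 and between 27.7 and 32.1.

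The ratio of ligand to receptor also differed. Efna1 FPKM divided by Epha2 FPKM was 0.84, 0.98 and 1.20 in shNC and 4.76, 4.59 and 7.15 in shTrem2. Ligand and receptor were about level in each shNC library, and the ligand exceeded the receptor in each shTrem2 library. The summed FPKM of the 14 receptor genes was 11.9 ± 2.13 in shNC and 1.37 ± 0.30 in shTrem2, and that of the 8 ephrin genes 13.6 ± 0.39 and 5.94 ± 0.83 (SD, n = 3). Epha2 held 97.5 ± 0.78% of the receptor sum in shNC and 63.4 ± 14.0% in shTrem2, with 49.1% as the lowest library. Efna1 held 84.5 ± 5.90% and 76.7 ± 4.00% of the ephrin sum. These sums follow from the choice of Epha2 and are given without a test.

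**Figure D2:**
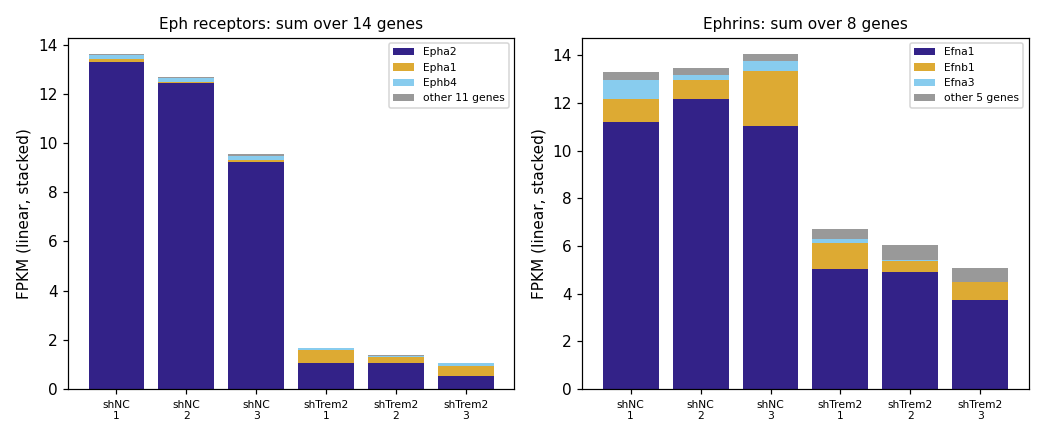
Stacked FPKM (linear axis from 0) of the 14 Eph receptor genes and of the 8 ephrin genes in each library. Epha2 makes up 96.7% or more of the receptor bar in every shNC library, Epha1 takes 17.3% to 39.6% of the much shorter shTrem2 bars, and Efna1 leads the ephrin bars in all 6 libraries.

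Among the 13 family genes outside the members, 1 passed the filter on low counts, and it did so only through its counts in shTrem2. Epha1, which encodes another receptor of A-class ephrins, had 6, 2 and 5 counts in shNC and 31, 14 and 20 in shTrem2. The highest shNC library lay under the lowest shTrem2 library. Its log2 fold change was 2.15 (SE 0.50). Epha1 met the criteria for a call, but the filter kept it for its shTrem2 counts. The call and its direction are therefore not read as a difference between the groups. In FPKM Epha1 measured 0.13, 0.04 and 0.09 against 0.53, 0.24 and 0.42. Its share of the receptor sum was 0.74 ± 0.37% in shNC and 29.7 ± 11.4% in shTrem2. Even so, each shTrem2 library had less Epha1 than Epha2 per length. At these counts, the call was lost on log2(FPKM + 1), where the fold change was 0.36.

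Efna3, the gene between Efna1 and Efna4 and a further A-class ligand, had 10, 9 and 10 counts in shNC and 7, 1 and 1 in shTrem2, with a ratio of 0.28 (95% interval 0.12 to 0.61, counting error only). It was below the filter. With no filter beyond 1 count it was called (log2 fold change -1.79, adjusted p = 0.0389, edgeR), and DESeq2 gave -1.83 with an adjusted p of 0.108. Efna3 was tested in 6 alternatives. Those with a library left out kept it only through shNC, where it was higher, so their p-values are not read. The log2 fold change was -3.26 without shTrem2 replicate 1, the library with 7 counts, and -1.39 without shTrem2 replicate 2 or 3. Efnb3 had 6 to 8 counts in shNC and 6 to 16 in shTrem2, and Efna2, Epha5 and Epha10 had 4 counts or fewer in every library. The other 7 genes had 0 counts throughout. Over the whole family of 22, 9 genes had 0 counts in all libraries and 11 were at or under 3 counts.

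Signalling below the receptors was measured through 63 genes in 4 lists, of which 46 passed the filter. Of these 46, 6 rose and 3 fell, or 19.6% called beside 21.8% of all tested genes, and their median log2 fold change was 0.08 beside a median of 0.00 over all genes. The pathway lists as a whole were therefore called about as often as other genes. The largest change was in Tiam1, a Rac exchange factor that binds EphA2 and ephrin-B1. It had 7, 14 and 17 counts in shNC and 143, 112 and 116 in shTrem2. Its log2 fold change was 3.14 (SE 0.26, adjusted p = 2.71e-07, edgeR's quasi-likelihood test, Benjamini-Hochberg adjusted). Tiam1 stayed called at 2.22 on log2(FPKM + 0.1) and 1.02 on log2(FPKM + 1), scales that understate the change of low genes.

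Of the 13 tested regulators of small GTPases, 2 rose, 1 fell and 10 were not called, with a median log2 fold change of 0.09. Beside Tiam1, the GTPase gene Cdc42 rose from 305.5 ± 1.10 to 452 ± 17.2 CPM (log2 fold change 0.60, adjusted p = 9.29e-08, edgeR). Vav2, an exchange factor recruited by activated Eph receptors, fell from 19.2 ± 0.81 to 12.2 ± 0.70 CPM (-0.62, adjusted p = 7.92e-05, edgeR). Cdc42 and Vav2 sat close to the 1.5-fold limit, and each lost its call in 5 of 17 alternatives, always on the fold. The widely expressed GTPases Rhoa and Rac1 had log2 fold changes of 0.13 and 0.33 and were not called.

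Of the 19 tested kinases, phosphatases and adaptors of forward signalling, 2 rose, 1 fell and 16 were not called (median 0.01). Src, a kinase activated by Eph receptors, had 19, 25 and 29 counts in shNC and 71, 80 and 71 in shTrem2. The groups were well apart, and the log2 fold change was 1.46 (SE 0.23, adjusted p = 9.41e-05, edgeR). The Src call was lost on log2(FPKM + 1), at 0.48, which was 1 of 17 alternatives. Sla, the Src-like adaptor found as a partner of EphA2, rose from 44.1 ± 2.92 to 82.4 ± 6.47 CPM (0.94, adjusted p = 1.31e-07, edgeR). Inppl1, which encodes the lipid phosphatase SHIP2 that binds the EphA2 tail, fell from 194.9 ± 17.0 to 121.0 ± 7.70 CPM (-0.65, adjusted p = 1.39e-06, edgeR). The Src-family kinases Lyn and Fyn had log2 fold changes of 0.31 and -0.22 and were not called.

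Of the 6 tested genes of ephrin reverse signalling, 1 fell and 5 were not called (median -0.05). It was Pick1, a PDZ protein that binds the tail of B-class ephrins, at 30.6 ± 3.11 CPM in the control libraries against 18.1 ± 1.53 CPM in shTrem2 (-0.72, adjusted p = 1.54e-05, edgeR). Of the 8 tested proteases that cut Eph receptors or ephrins, 2 rose and 6 were not called (median 0.24). Psen2, a catalytic subunit of gamma-secretase, rose from 19.5 ± 1.25 to 29.3 ± 0.35 CPM (0.62, adjusted p = 9.2e-06, edgeR), and it lost its call in 4 of 17 alternatives. The sheddase genes Adam10 and Adam17 had log2 fold changes of 0.25 and 0.22 and were not called.

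**Figure D3:**
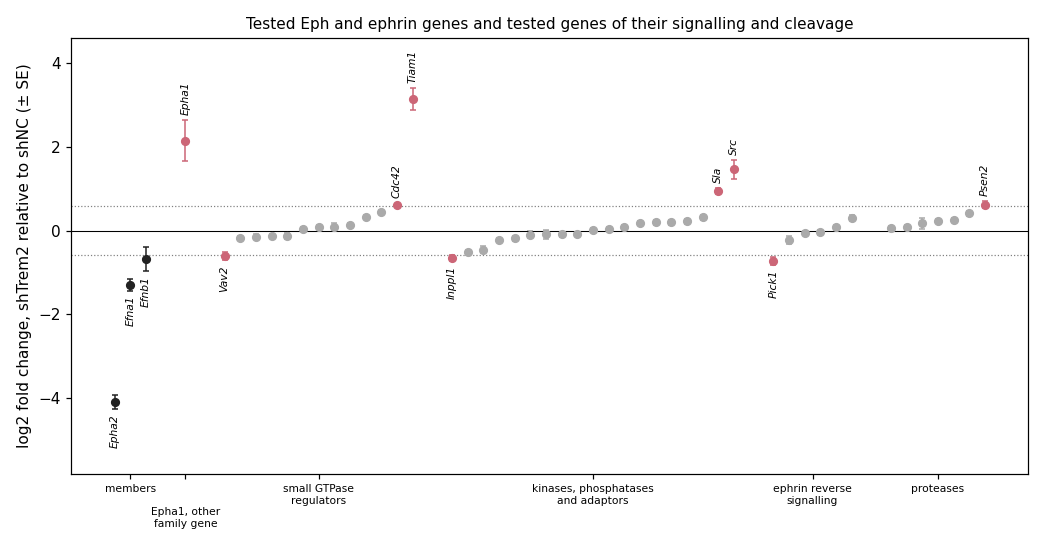
log2 fold change of shTrem2 relative to shNC (± SE) for the 3 members, Epha1 and the pathway genes that passed the filter (all but 1 of the 46), grouped by list. Dotted lines stand at 1.5-fold, black points are members (no test), red points were called and grey points were not; Epha2 at -4.10 and Tiam1 at 3.14 lie farthest from 0.

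For each member, the nearest tested gene on each side was taken from the gene order in GENCODE M21, which is on GRCm38 while the submitters' processing notes name GRCm39. Untested genes can lie between, so some of these neighbours are not adjacent and are far from their member. Of the 16 genes, 5 were called higher and 2 lower, beside 21.8% of all genes called. Beside Epha2, Fbxo42 was not called (log2 fold change 0.38), and Hspb7 was called higher at 0.79 (adjusted p = 0.0462, edgeR), a call that was lost in 12 of 17 alternatives. Neither of them was lower in shTrem2. Beside Efna1, Slc50a1, a sugar transporter gene, fell from 71.8 ± 0.85 to 43.5 ± 1.74 CPM (-0.69, adjusted p = 2.37e-07, edgeR). Adam15, the nearest tested gene on the other side of Efna1 and Efna4, was not called (-0.28). Around the members that were too low to test, Shcbp1 (0.99), Stk11ip (0.74) and Pop7 (0.61) rose and Arglu1 (-0.68) fell. Mgam was called higher at 2.45, with 6, 18 and 11 counts in shNC and 84, 72 and 56 in shTrem2. It passed the filter only through shTrem2, so its call and direction are not read as a difference between the groups. The Pop7 call was lost in 5 of 17 alternatives (0.49 without shNC replicate 2), and that of Mgam in 1 of 16.

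The genes with values most like those of Epha2 were sought among 9547 other tested genes whose mean log2 CPM reached 3. Likeness was the root mean square difference in log2 CPM over the 6 libraries, after each gene was centred on its mean. The nearest were Slpi (0.28), a secreted protease inhibitor, Ptgs2 (0.34), the inducible cyclooxygenase, Plk2 (0.35), a polo-like kinase, Il4i1 (0.48), an amino acid oxidase, and Acod1 (0.60), which makes itaconate. Their log2 fold changes were -4.11, -3.50, -4.49, -3.15 and -3.02, and the lower level in shTrem2 follows from how they were chosen. Slpi, the nearest, measured 63.9 ± 4.20 CPM against 3.61 ± 0.37 CPM.

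**Figure D4:**
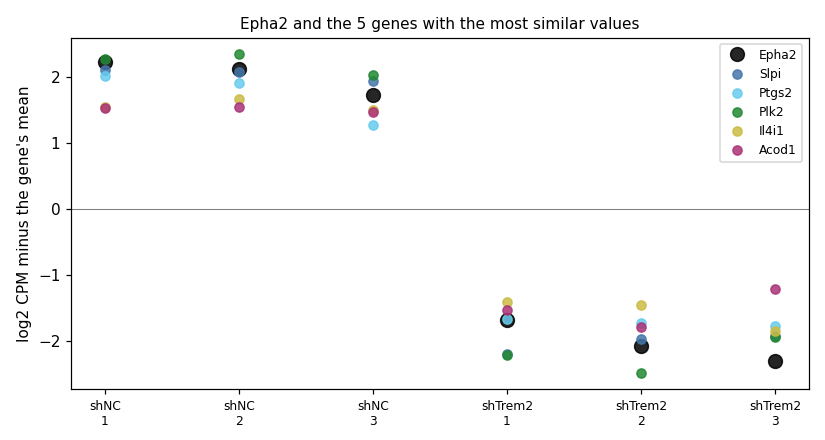
log2 CPM minus each gene's mean over the 6 libraries, for Epha2 and the 5 genes nearest to it. All 6 genes lie above 0 in the 3 shNC libraries and below 0 in the 3 shTrem2 libraries, and Epha2 is the lowest of them in shTrem2 replicate 3.

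Epha2 and Efna1 are also epithelial genes, and the cells had been given tubular debris, so epithelial markers were set beside them. Of 16 tubular epithelial markers, 9 had 0 counts in all libraries, among them Epcam, Cdh1, Krt8, Krt18 and Krt19, and 1 passed the filter. Their summed level was 0.956 to 1.51 CPM in shNC and 2.31 to 2.94 CPM in shTrem2, opposite in direction to Epha2. In shTrem2 most of it came from Aqp1, with 12, 6 and 5 counts in shNC and 38, 50 and 39 in shTrem2 (log2 fold change 2.30). Aqp1 passed the filter through shTrem2, where it was high, so no test of it is read. Summed mesenchymal markers (5 genes, 3 of them at 0) were 0.567 to 0.900 CPM in shNC and 0.514 to 1.07 CPM in shTrem2, and summed endothelial markers (4 genes) 0.315 to 0.394 and 0.310 to 0.661 CPM.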

How the data were processed

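RNA-seq of 6 libraries was re-analysed, grouped by the shRNA in their labels. The submitters' processing notes name GRCm39, fastp, HISAT2 and StringTie; the counting tool and annotation release are not given in the sources used here. The authors deposited estimated counts per transcript, not scaled for depth or length, and FPKM values per gene. The transcript values of each symbol were added and rounded to whole counts. Rows without a symbol held 0.908% to 1.12% of counts per library and were left out. CPM used the named counts.

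Fold changes came from edgeR 4.0.16 (TMM, filterByExpr, quasi-likelihood test, R 4.3.3) without covariates, after the script was tested on simulated data. Calls needed an FDR under 0.05 and a fold change over 1.5, the paper's criteria. Intervals for low members are exact, at 95%, on summed counts. PCR copies are not independent molecules, so intervals and limits cover counting error only.

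Members and lists were chosen with earlier results of these data known. Named were all members, other family genes that passed the filter, called pathway genes (up to 6 per list), called neighbours and the 5 genes most like Epha2; Efna2, Efna3, Efnb3, Epha5, Epha10, Rhoa, Rac1, Lyn, Fyn, Adam10, Adam17, Adam15, Fbxo42 and the single cell-type markers were named after their values were seen. Promoters are from RefSeq (GRCm38.p6), matched by symbol for all 9 members. Alternatives were DESeq2 1.42.0, limma-voom and limma 3.58.1 on log2 FPKM with pseudocounts of 1 and 0.1, other normalizations, filters and thresholds, a replicate block and each library left out. The authors' comparisons were not used, and 1 called pathway gene is not reported here by name.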

Additional observations from a re-analysis of the deposited data

How the results depend on the processing

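Over 17 alternatives the log2 difference stayed below 0 for Epha2 (-4.29 to -2.75), Efna1 (-1.38 to -1.17) and Efnb1 (-0.88 to -0.36). For Epha2 it was -2.75 on log2(FPKM + 1), -3.62 on log2(FPKM + 0.1) and -3.74 with an offset for effective length per library, an alternative chosen after seeing the data; the pseudocounts compress low values by construction. With each library left out in turn Epha2 ranged from -4.29 to -3.97. Of the other family genes, 0 were called with at least 10 counts in every sample and 0 on log2(FPKM + 1), since Epha1 failed the filter or the fold. There were 2 calls with no filter beyond 1 count, and 1 to 2 with each library left out (2 without shTrem2 replicate 1), Efna3 being added. Without shTrem2 replicate 1, Efna3 passed the filter only through shNC, so that call is not read. Called pathway genes numbered 5 on log2(FPKM + 1), 29 with no fold threshold and 2 above 2-fold, against 9. Called neighbours numbered 4, 11 and 1 under the same settings, against 7. All genes called numbered 7763 with no fold threshold and 1339 above 2-fold, against 2951. The replicate numbers did not pair the samples (correlations of same-numbered libraries 0.006, -0.004 and 0.007), and the fit with a replicate block gave -4.10 for Epha2, -1.31 for Efna1, 9 pathway genes and 6 neighbours, with Hspb7 lost. No normalization moved the median log2 fold change of all genes by over 0.1, and none of these results reversed. Depth limits 6 of the 9 members: the Ephb4, Efna4 and Efnb2 ratios rest on 45, 21 and 16 counts in all.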
